A study of Mus musculus with 12 samples.

Results

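The transcripts of oxidative phosphorylation, the 103 protein-coding genes of respiratory complexes I to IV, cytochrome c and the ATP synthase (complex V), were followed in mouse adipose tissue after a burn. Members were chosen by name only: genes whose symbols begin with the family prefixes of the subunits (Ndufa, Ndufb, Ndufc, Ndufs, Ndufv, Sdha to Sdhd, Uqcr, Cyc1, Cycs, Cox4i, Cox5 to Cox8, Atp5), without assembly factors, and the 13 mRNAs encoded by mitochondrial DNA, together 103 of 27179 gene identifiers counted. Of the members, 90 are nuclear: 39 in complex I, 4 in complex II, 9 in complex III, 1 for cytochrome c, 20 in complex IV and 17 in complex V. Mitochondrial DNA encodes the other 13, with 7 in complex I, 1 in complex III, 3 in complex IV and 2 in complex V. All mice were wild-type C57BL/6J sampled at day 7, in 4 groups of 3 libraries: untreated adults (Adult control), scalded adults (Adult burn), untreated aged mice (Aged control) and scalded aged mice (Aged burn). The scald came from water at 98 °C, with 10 s on the back for 20% of the body surface, and in adults a further 2 s on the belly for 10% more. Adult burns thus covered 30% and aged burns 20%, and buprenorphine was given against pain. Age therefore cannot be told apart from burn size or from the table in which the counts were deposited. Depot, sex and exact ages are not stated in the labels. Whether every library is a separate mouse is not stated either, and the p-values then reflect only the variation among libraries, which may be technical.

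The respiratory chain passes electrons from NADH through complex I and from succinate through complex II to complex III, cytochrome c and complex IV, and the proton gradient built on the way drives the ATP synthase. Complexes I, III, IV and V are mosaics of subunits made from nuclear mRNAs and from mRNAs transcribed inside mitochondria, while complex II is wholly nuclear. White adipocytes hold few mitochondria, brown and beige adipocytes hold many, and several complex IV subunits have a second gene used in muscle or in heat-producing fat.

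Libraries held 25231506 to 46531070 counts. Levels are given as CPM, the counts of a gene brought to a common library total, scaled by the TMM method over the 12 libraries, and values are listed in the order of the library numbers. The adipocyte gene Adipoq was at 727 to 4184 CPM in every library, and markers of heart and of testis were at most 1.06 CPM in sum. Libraries that stood apart were Adult control 1, with B cell markers at 1327 CPM in sum against 2.49 to 19.9 CPM in the other 11 libraries, Adult burn 1, with skeletal muscle markers at 3729 CPM against 9.48 to 511 CPM, and Aged burn 2. Aged burn 2 had the highest sum of neutrophil markers (1712 CPM against 3.13 to 164 CPM) and the lowest sum of 10 adipocyte markers (10259.6 CPM against 21403 to 57664 CPM). In bulk tissue, fewer cells of a type and less RNA per cell cannot be told apart.

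The 13 mitochondrially encoded mRNAs fell into 2 levels. The mRNAs of mt-Nd1, mt-Nd2, mt-Nd4 and mt-Nd5 (complex I), mt-Cytb (complex III) and mt-Co1 (complex IV) were each at 1653 CPM or more in every library. In contrast, mt-Co2 and mt-Co3 (complex IV), mt-Atp6 and mt-Atp8 (complex V) and mt-Nd3 and mt-Nd4l (complex I) were at 1.20 to 49.2 CPM. These 6 lie side by side in the mitochondrial genome (GRCm38, MT:7013-10173), between mt-Co1 (MT:5328-6872) and mt-Nd4 (MT:10167-11544). Per base of mRNA, over all 12 libraries, mt-Co2 had 0.00209 and mt-Atp6 0.00235 of the counts of mt-Co1, whereas mt-Cytb had 0.848. The mRNA of mt-Nd6, the 1 member read from the other strand, was at an intermediate 22.7 to 194 CPM, or 0.0108 of mt-Co1 per base.

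Sequences of the 13 mRNAs were compared with 141730 annotated nuclear transcripts of GENCODE M21. Every 50-base window of mt-Co2 had an exact nuclear copy, as had 99.5% of those of mt-Atp6, 99.9% of mt-Co3, 98% of mt-Nd3 and 98.8% of mt-Nd4l. The longest copies of these 5 belong to a run of unprocessed pseudogenes on chromosome 1, from Gm28439 (chr1:24611535-24612410) to Gm29216 (chr1:24615706-24616197), all on the minus strand. The share was 62.2% for mt-Nd4, 51.1% for mt-Co1, 8.19% for mt-Nd2, 7.61% for mt-Nd5 and 0% for mt-Nd1, mt-Nd6 and mt-Cytb. It was also 0% for mt-Atp8, which is among the low mRNAs. Only annotated transcripts were searched, so a share of 0% cannot show that an mRNA has no copy elsewhere in the nuclear genome. Shown here are the start of mt-Co2 and the 2 edges of the run, 120 bases each, with the bases of an exact copy in capitals (Gm28661, Gm29216 and Gm28439, in this order).
mt-Co2, MT:7013-7132, plus strand: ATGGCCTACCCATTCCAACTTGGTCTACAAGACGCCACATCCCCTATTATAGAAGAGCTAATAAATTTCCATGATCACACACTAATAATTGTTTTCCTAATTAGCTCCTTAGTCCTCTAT
mt-Co1, MT:6334-6453, plus strand: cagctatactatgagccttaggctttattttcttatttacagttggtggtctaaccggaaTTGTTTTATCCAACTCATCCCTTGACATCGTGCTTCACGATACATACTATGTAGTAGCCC
mt-Nd4, MT:10983-11102, plus strand: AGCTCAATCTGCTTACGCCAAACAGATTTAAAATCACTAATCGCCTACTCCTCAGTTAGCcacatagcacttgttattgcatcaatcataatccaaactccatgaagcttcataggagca
In mt-Co2 the copy runs through 681 of 684 bases, in mt-Co1 it begins at MT:6394 and in mt-Nd4 it ends at MT:11042. The labels do not state how reads that fit both places were counted, and the part of the copies in the low counts was not tested.

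**Figure D1:**
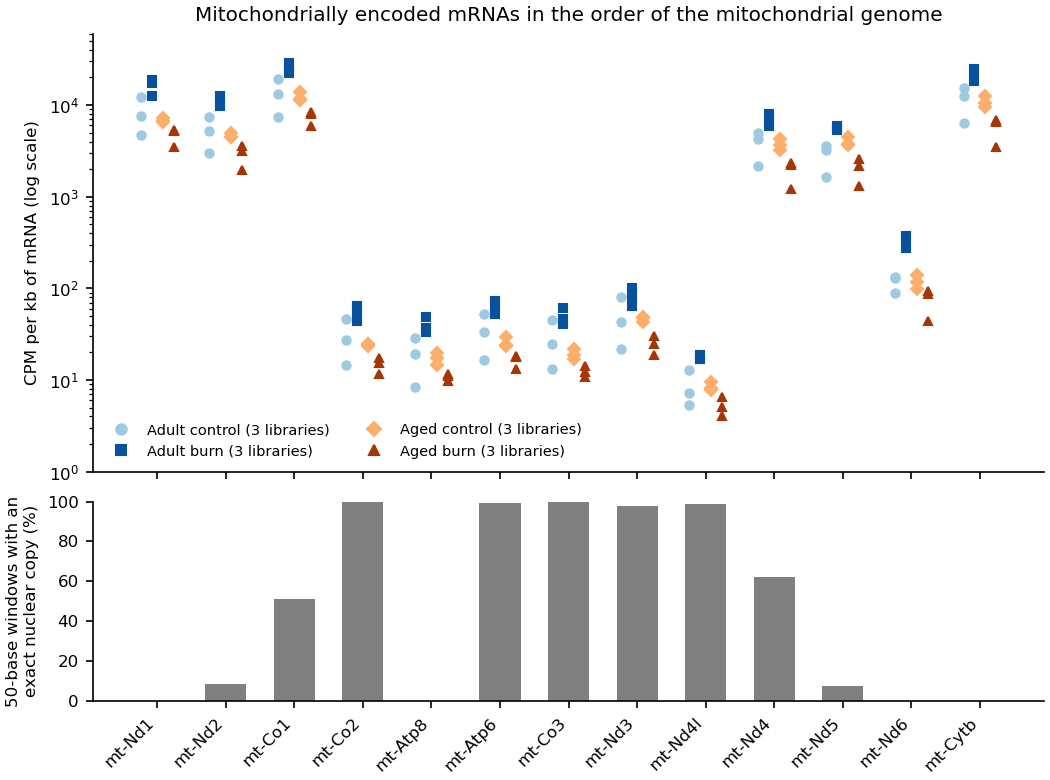
Upper panel, CPM per kb of mRNA (log axis) of the 13 mitochondrially encoded mRNAs in each library, in genome order, with 1 point per library and 3 libraries per group. Lower panel, percent of 50-base windows with an exact copy in an annotated nuclear transcript: from mt-Co2 to mt-Nd4l all mRNAs except mt-Atp8 are at 98% or more, and the levels of these 6 are lowest.

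Promoters of the nuclear members were searched for the letters bound by 4 regulators of mitochondrial genes. Windows of 250 bases before to 50 after a start were found in the RefSeq table (GRCm38.p6) for 72 of the 90 nuclear members. On either strand, the palindromic NRF1 motif, spelled by the capitals of the Uqcrc1 stretch, was in 6.94% of member genes, against 1.07% of all 27025 genes with a window. The YY1 letters AAGATGGC were in 13.9% against 3.19%, the GABPA letters CCGGAAGT in 6.94% against 4.31%, and the letters TCAAGGTCA of estrogen-related receptors (ERR) in 2.78% against 0.466%. These shares rest on 5 member genes for NRF1, 10 for YY1, 5 for GABPA and 2 for ERR, and they were not tested. The stretches shown are 1 or 2 members for each motif, to let the letters be seen in place, in capitals.
Uqcrc1, NRF1, chr9:108936668-108936697, plus strand: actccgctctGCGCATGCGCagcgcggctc
Cox6a1, NRF1, chr5:115349101-115349130, minus strand: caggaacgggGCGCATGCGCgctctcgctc
Ndufs7, YY1, chr10:80249462-80249491, plus strand: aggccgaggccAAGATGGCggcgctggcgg
Ndufa9, YY1, chr6:126849097-126849126, minus strand: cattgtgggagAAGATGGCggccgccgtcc
Ndufs3, GABPA, chr2:90904703-90904732, minus strand: tgcacatttccACTTCCGGtccgtgccctt
Sdhd, ERR, chr9:50603800-50603829, minus strand: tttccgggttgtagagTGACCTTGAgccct
The letters of Ndufs3 and Sdhd are the reverse complement of the motif. The match in Cox6a1 lies 162 bases before the annotated start, and the others lie at the start or up to 36 bases after it. A match is a description of these letters and not a bound site.

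Summed over members, both genomes were highest in scalded adults and lowest in burned aged mice. The 90 nuclear members summed to 11879, 20579 and 28752 CPM in adult controls and to 31813, 26739 and 34533 CPM in scalded adults. They summed to 15483, 15407 and 16211 CPM in aged controls and to 13976, 11179.6 and 12525 CPM in burned aged mice. Adult controls spread widely, with Adult control 1 far below and Adult control 3 above the lowest burned adult, while aged groups were tight and did not overlap. The 13 mitochondrially encoded mRNAs summed to 32413, 59609.9 and 79975 CPM in adult controls and 112865, 95878 and 125698 CPM in scalded adults. In aged mice they summed to 53245, 62005 and 50314 CPM in controls and 35984, 22629.6 and 36705 CPM after burn. Neither pair of groups overlapped for the mitochondrial sum. As a share of all counts, the mitochondrial sum made up 3.88% to 7.52% in adult controls, 8.94% to 11.0% in scalded adults, 4.95% to 6.13% in aged controls and 2.36% to 4.13% in burned aged mice.

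By complex, the ratio of the mean sums, burn over control, ran in adults from 1.47 for nuclear complex V to 1.65 for complex III and 1.92 for cytochrome c. In aged mice it ran from 0.712 for complex II to 0.858 for nuclear complex IV and 0.918 for cytochrome c. The mitochondrially encoded sets were at 2.00 (complex I), 1.89 (III), 1.91 (IV) and 1.89 (V) in adults. In aged mice they were at 0.581, 0.517, 0.607 and 0.638 in the same order. Member by member, the highest of the 4 group means was in scalded adults for 86 of the 88 nuclear members that had 12 or more counts over the 12 libraries and for 13 of 13 mitochondrial members. The lowest was in burned aged mice for 75 nuclear and 13 mitochondrial members. Ndufa4l2, a complex IV subunit known from hypoxic cells, and Atp5g1, 1 of the genes of the c-ring of ATP synthase, were the nuclear members whose highest mean was in burned aged mice.

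**Figure D2:**
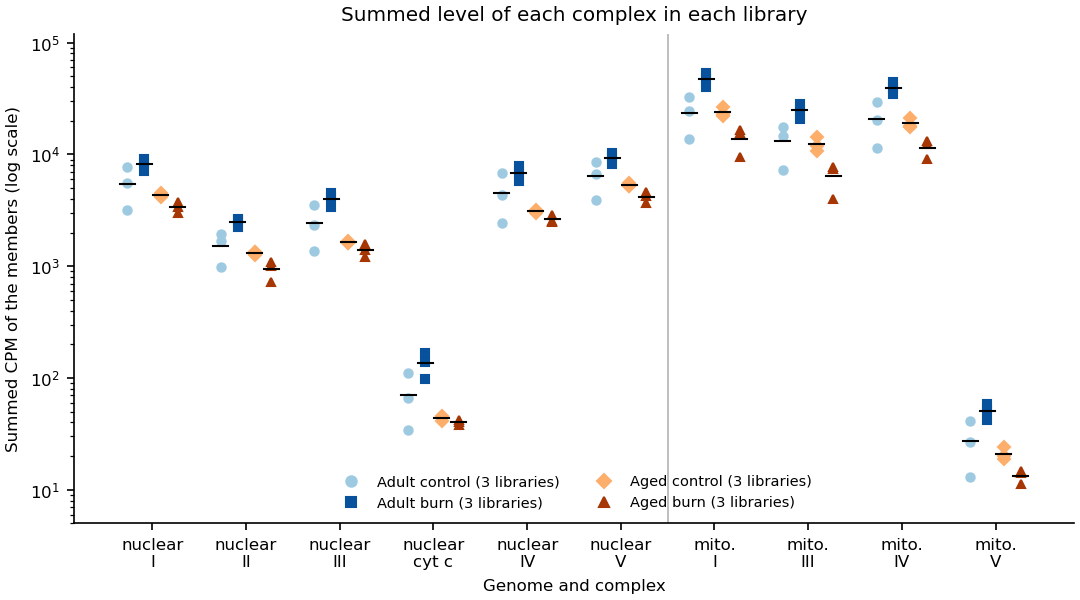
Summed CPM (log axis) of the members of each complex, by genome, in each of the 12 libraries, with black bars at group means (3 libraries per group). Burned adults have the highest mean and burned aged mice the lowest in each of the 10 sets, and Adult control 1 is the lowest of its group.

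Burn in adult mice was tested first, against the untreated adults. Of 100 members that passed the filter on low counts, 99 had a positive log2 fold change and 1, Atp5g1, a negative one, but none passed the edgeR test at an adjusted p of 0.05, where 0.0411% of 14600 genes were called higher and 0% lower. At an unadjusted p under 0.05 there were 17 of 87 nuclear and 2 of 13 mitochondrial members, all higher, among 638 of 14600 genes. DESeq2 called Cox7a1 and mt-Nd6, and limma-voom called Cox7a1. Of all 14600 genes they called 62 and 9, all higher. The median log2 fold change was 0.55 over nuclear and 0.93 over mitochondrial members, against -0.04 over all genes. All 3 burned libraries lay above all 3 controls for 22 nuclear and 9 mitochondrial members and below them for none, where 6.77% of all genes lay above and 3.42% below. Without Adult control 1, the library with lymphocyte transcripts, the medians were 0.26 and 0.63, and without Adult control 3 they were 0.92 and 1.38. The part of lymphocyte transcripts in the fold changes was not tested.

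By complex, the nuclear medians in adults were 0.54 (complex I, 38 tested), 0.73 (complex II, 4), 0.64 (complex III, 9), 0.94 (cytochrome c), 0.48 (complex IV, 18) and 0.47 (complex V, 17). Within complex I, the 7 core subunits that carry the flavin and the iron-sulfur clusters had a median of 0.72 and the 31 other nuclear subunits tested one of 0.52. Burned libraries lay above all controls for 6 of the 7 core and for 3 of the 31 other subunits. The core was set apart after its values had been seen. In complex II, which oxidises succinate, burned libraries lay above all controls for 4 of 4 members.

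The nuclear member with the largest difference in complex I was Ndufa10, an accessory subunit. It was at 123, 219 and 255 CPM in adult controls and at 375, 317 and 348 CPM in scalded adults. The groups did not overlap, and the log2 fold change was 0.79 ± 0.28 (SE; adjusted p = 0.788). In complex II, Sdhb, the iron-sulfur subunit, was at 145, 269 and 362 CPM in controls and 476, 414 and 509 CPM after burn. Its groups were separate as well (log2 fold change 0.85 ± 0.33, adjusted p = 0.788). In complex III, Uqcrc1, a core protein and the nuclear member there with the most counts, was at 222, 354 and 366 CPM and then 653, 547 and 611 CPM. The burned libraries lay well above the controls (log2 fold change 0.94 ± 0.24, adjusted p = 0.788). Cyc1, the cytochrome c1 subunit that hands electrons to cytochrome c, was at 167, 284 and 331 CPM against 499, 404 and 502 CPM. Its groups did not overlap either (log2 fold change 0.84 ± 0.28, adjusted p = 0.788).

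Cycs, the carrier between complexes III and IV, was at 33.9, 65.8 and 112 CPM in adult controls and 140.3, 97.5 and 168 CPM in scalded adults. Adult control 3 overlapped the lowest burned library (log2 fold change 0.94 ± 0.43, adjusted p = 0.788). Cox4i1, the nuclear complex IV member with the most counts, was at 539.7, 944 and 1493 CPM against 1334, 1269 and 1531 CPM. Its groups overlapped, since Adult control 3 was nearly as high as the highest burned library (log2 fold change 0.47 ± 0.39, adjusted p = 0.789). Atp5b, the catalytic beta subunit and the nuclear member with the most counts, was at 1156, 2166 and 2161 CPM and 3183, 2744 and 3079 CPM. All burned libraries exceeded all controls (log2 fold change 0.71 ± 0.35, adjusted p = 0.788).

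Among the mitochondrial members in adults, mt-Nd6, a membrane subunit of complex I, had the largest difference. It was at 46.6, 68.9 and 66.5 CPM in controls and 182, 143 and 194 CPM after burn. The burned libraries stood far above the controls (log2 fold change 1.51 ± 0.21, adjusted p = 0.222). Its gene (MT:13552-14070) overlaps only the end of mt-Nd5 (MT:11742-13565), on the opposite strand. The labels do not state whether the counting used strand, so reads of that short overlap cannot be told apart. The catalytic subunit mRNA mt-Co1 was at 11491, 20429 and 29552 CPM and then 38912, 34803 and 43943 CPM. All burned libraries were above all controls, over a wide control spread (log2 fold change 0.93 ± 0.72, adjusted p = 0.788). For mt-Cytb, the cytochrome b of complex III, the values were 7283, 14495 and 17559 CPM against 25111, 20742 and 28496 CPM. The groups were separate (log2 fold change 0.91 ± 0.63, adjusted p = 0.788). The other 10 mitochondrial members had log2 fold changes from 0.75 (mt-Nd3) to 1.12 (mt-Nd2).

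Burn in aged mice gave the opposite sign for most members. Of 100 members tested, 88 had a negative and 12 a positive log2 fold change, and 6 fell and 2 rose at an adjusted p of 0.05, where 3.03% of 15132 genes fell and 13.7% rose. The 6 that fell are 6.00% of the members, whose genes share libraries, and no test compared this share with that of all genes. No call of a member was kept in every omission of 1 library. The median log2 fold change was -0.30 over nuclear and -0.69 over mitochondrial members, against -0.01 over all genes. All 3 burned libraries lay below all 3 controls for 51 nuclear and 13 of 13 mitochondrial members, and above them for 4 nuclear members, where 24.3% of all genes lay below and 26.3% above. By edgeR, called members that fell were Ndufa5, Ndufb3 and Ndufc2 of complex I and the mitochondrially encoded mt-Nd3, mt-Co2 and mt-Co3, and Cox6a2 and Cox7a1 of complex IV rose. DESeq2 called 38 members lower and 4 higher, and limma-voom with quality weights 42 and 6. Of all 15132 genes, DESeq2 called 1897 lower and 3114 higher, and limma-voom 3948 and 4442.

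The nuclear medians in aged mice were -0.36 for complex I, -0.33 for complex II, -0.26 for complex III, -0.12 for cytochrome c, -0.13 for complex IV and -0.09 for complex V. Every one of the 38 complex I members tested had a negative value, from -0.65 to -0.01, and 31 had all burned libraries below all controls. In complex IV, 7 of 18 members had a positive value, and in complex V, 4 of 17. No test compared the complexes with one another.

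Ndufa5, an accessory subunit of the matrix arm, was at 62.03, 59.8 and 59.1 CPM in aged controls and 44.9, 35.9 and 40.7 CPM in burned aged mice. Each burned library lay below each control, and Ndufa5 fell by a log2 fold change of -0.57 ± 0.12 (adjusted p = 0.0274). Ndufb3, an accessory subunit of the membrane arm, was at 130.1, 124 and 139 CPM and then 93.6, 74.4 and 96.3 CPM. It fell without overlap, with Aged burn 2 lowest (log2 fold change -0.57 ± 0.14, adjusted p = 0.0422). Ndufc2, also of the membrane arm, was at 126, 129.9 and 133 CPM against 103, 94.3 and 93.1 CPM. It fell by a smaller amount in tight groups (log2 fold change -0.42 ± 0.11, adjusted p = 0.0485). Sdha, the flavoprotein of complex II and its member with the most counts, was at 682, 763 and 712 CPM in controls and 526, 268 and 512 CPM after burn. Its groups were separate, but Aged burn 2 stood far below the other burned libraries, and it did not pass the test (log2 fold change -0.72 ± 0.29, adjusted p = 0.123). Uqcrc2, a core protein of complex III, was at 256, 273 and 277 CPM and 234, 153 and 217 CPM. The groups were again separate without a call (log2 fold change -0.42 ± 0.19, adjusted p = 0.159). Atp5b was at 1695, 1775 and 1853 CPM and 1372, 774 and 1295 CPM, with Aged burn 2 lowest (log2 fold change -0.63 ± 0.29, adjusted p = 0.162).

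The 3 mitochondrial mRNAs that edgeR called lower in aged mice belong to the low group, while DESeq2 and limma-voom each called 12 of 13, with 6 of the 6 low and 6 of the 7 others. Counts of mt-Nd3, a membrane subunit of complex I, corresponded to 15.1, 16.3 and 16.8 CPM in controls and 10.6, 6.51 and 8.69 CPM after burn. It fell by a log2 fold change of -0.91 ± 0.20 (adjusted p = 0.0319), in groups that did not overlap. For mt-Co2, the subunit of complex IV that receives electrons from cytochrome c, the values were 16.8, 17.02 and 16.2 CPM and 11.9, 8.02 and 10.4 CPM. It fell from a tight control group (log2 fold change -0.72 ± 0.18, adjusted p = 0.0407). For mt-Co3, another core subunit of complex IV, they were 14.9, 17.02 and 13.4 CPM and 11.1, 8.52 and 9.47 CPM. Its change was -0.64 ± 0.17 on the log2 scale (adjusted p = 0.049), and leaving out any 1 of the 6 libraries ended the call. Of the abundant mRNAs, mt-Co1 went from 17991, 21318 and 17454 CPM to 13077, 9105 and 12288 CPM. All burned libraries were lower, with Aged burn 2 lowest, and the test was not passed (log2 fold change -0.72 ± 0.51, adjusted p = 0.323). The 6 low mRNAs had a median of -0.68 and the 7 others one of -0.72. No other call held in every omission: Cox6a2 kept its call without 5 of the 6 libraries in turn, mt-Nd3 and Cox7a1 without 3, and the others without 2. Calls were lost over all genes too. Without Aged control 1, 2 or 3, genes called lower numbered 24, 17 and 0, against 459 with all libraries. Genes called higher numbered 551, 393 and 0, against 2075.

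**Figure D3:**
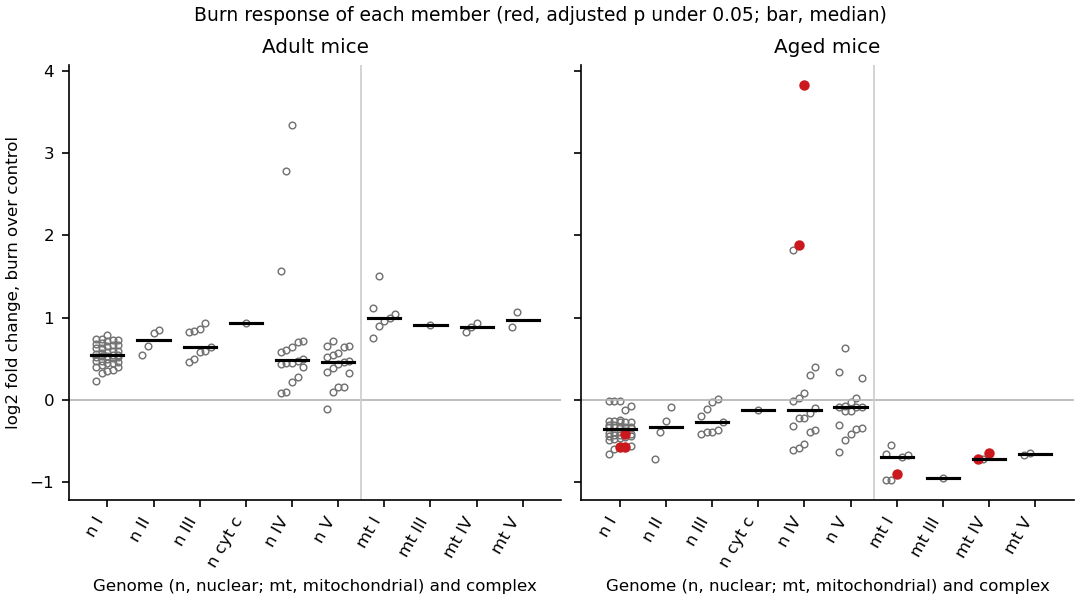
Log2 fold change, burn over control, of each tested member by genome and complex in adult mice (left) and aged mice (right), with each point a gene, red for an adjusted p under 0.05 and black bars at medians. All medians are above 0 in adults and below 0 in aged mice, with no red point in adults and 8 in aged mice.

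The contrast of both burn responses, aged minus adult, was tested over all 12 libraries and asks whether the 2 ages responded alike. It was negative for 94 of 100 members and called lower for 8 and higher for none, where 2.22% of 15553 genes were called lower and 9.64% higher. At an unadjusted p under 0.05 there were 50 members lower and 1 higher, among 5367 of 15553 genes in either direction, DESeq2 called 39 lower and 1 higher, and limma-voom 34 and 1. Of all 15553 genes, DESeq2 called 1469 lower and 2314 higher, and limma-voom 1642 and 2422. The median was -0.81 over nuclear and -1.74 over mitochondrial members, against 0.05 over all genes. Members called by edgeR were mt-Nd4l, mt-Nd5 and mt-Nd6, the core subunits Ndufs1, Ndufs7 and Ndufv1 of complex I, and both core proteins of complex III, Uqcrc1 and Uqcrc2. By edgeR none of the 31 other nuclear subunits of complex I was called (median -0.90 against -0.99 in the core), with 14 lower at an unadjusted p under 0.05, nor any member of complexes II, IV and V. DESeq2 called 8 and limma-voom 6 of the 31 lower. In complex II they called 3 and 2 lower, among nuclear members of complex IV 4 and 2, and of complex V 2 each with 1 higher, and both called all 5 mitochondrial members of complexes IV and V lower. Without Adult control 1 and Adult burn 1 none of the 8 remained called, and the medians were -0.53 and -1.43. In that fit 0 of all 15703 genes were called in either direction, so the loss was not particular to the members. Without Adult control 3, by contrast, 53 nuclear and 11 mitochondrial members were called lower, where 692 of 15936 genes were.

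Ndufs1, the largest subunit of complex I and holder of several iron-sulfur clusters, was at 137, 219 and 244 CPM in adult controls, 359, 299 and 349 CPM in scalded adults, 168, 182 and 183 CPM in aged controls and 135, 73.03 and 145 CPM in burned aged mice. It was higher in every burned adult than in every adult control and lower in every burned aged mouse than in every aged control (difference -1.34 ± 0.38, adjusted p = 0.045). Ndufv1, which binds NADH and the flavin, was at 138, 239 and 248, 372, 317 and 354, 186, 195 and 209 and 159, 87.1 and 155 CPM in the same order. It showed the same pattern of separate groups (difference -1.30 ± 0.37, adjusted p = 0.0461). Ndufs7, which carries the last iron-sulfur cluster before the quinone, was at 80.2, 116 and 138, 169, 151 and 167, 96.3, 94.6 and 95.3 and 81.8, 54.8 and 76.04 CPM. Its groups were separate at both ages, with a smaller difference of -0.97 ± 0.28 (adjusted p = 0.0495). Uqcrc2 was at 224, 356 and 445 CPM in adult controls and 641, 525 and 653 CPM in scalded adults. With the aged values given above, the difference was -1.24 ± 0.35 (adjusted p = 0.0452). Uqcrc1 was at 266, 276 and 283 CPM in aged controls and 294, 176 and 253 CPM in burned aged mice. The aged groups overlapped, since Aged burn 1 was above all controls (aged log2 fold change -0.19; difference -1.13 ± 0.33, adjusted p = 0.0475).

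Of the mitochondrial members, mt-Nd6 was at 60.2, 72.2 and 51.3 CPM in aged controls and 45.5, 22.7 and 48.5 CPM in burned aged mice. The aged groups did not overlap, and the difference was -2.17 ± 0.39 (adjusted p = 0.017). It kept its call without 8 of the 12 libraries in turn, and the other 7 called members without 2 or 3. Without Adult burn 1, Adult burn 2, Aged control 2 or Aged control 3, no gene at all was called. For mt-Nd5, a proton-pumping subunit, the values were 3001, 5953 and 6524 CPM, 9905, 9632 and 10654 CPM, 6879, 8251 and 6712 CPM and 3992, 2403 and 4702 CPM in the order of the groups above. Both pairs of groups were separate (difference -1.94 ± 0.54, adjusted p = 0.0443). The low mRNA mt-Nd4l, a small membrane subunit, was at 1.60, 2.13 and 3.86 CPM and 5.60, 5.02 and 5.06 CPM in adults and 2.30, 2.84 and 2.40 CPM and 1.51, 1.20 and 1.96 CPM in aged mice. It rests on 46 to 140 raw counts a library and did not overlap at either age (difference -1.74 ± 0.47, adjusted p = 0.0402). The 10 other mitochondrial members had differences from -1.87 to -1.47, each with an unadjusted p under 0.05. In the complexes without an edgeR call the largest differences among nuclear members were -1.38 ± 0.41 for Sdha (adjusted p = 0.0522), -2.16 ± 0.67 for Cox8b (adjusted p = 0.0585) and -1.35 ± 0.43 for Atp5b (adjusted p = 0.0619).

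Untreated aged and adult mice were then compared, the background of the burn comparisons. The log2 fold change, aged over adult, was negative for 84 of 87 nuclear and 11 of 13 mitochondrial members, and none was called by edgeR, where 0.424% of 15553 genes were called, 0.238% higher and 0.186% lower. At an unadjusted p under 0.05 there were 9 nuclear members, all lower, among 4091 of 15553 genes in either direction, and DESeq2 and limma-voom each called 3 lower, Cox5a, Cox7a1 and Cox8b. Of all 15553 genes, DESeq2 called 1195 lower and 989 higher, and limma-voom 143 and 191. The medians were -0.40 (nuclear) and -0.11 (mitochondrial), against -0.06 over all genes. Aged controls lay below all adult controls for 4 members and above them for 1, where 15.6% and 17.4% of all genes did. Without Adult control 3 the medians were -0.05 and 0.22, and the sign over the mitochondrial members thus turned. Members with the largest difference were Ndufa1 in complex I (-0.72, adjusted p = 0.191), Uqcrq in complex III (-0.98, adjusted p = 0.139), Cox8b in complex IV (-2.30, adjusted p = 0.0684) and Atp5mpl in complex V (-0.95, adjusted p = 0.165). Cycs was at -0.69 (adjusted p = 0.225) and, in complex II, Sdhd at -0.36 (adjusted p = 0.372).

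The balance between the genomes was read as counts of the 13 mitochondrially encoded mRNAs per count of the 90 nuclear members, which does not depend on scaling between libraries. It was 2.73, 2.90 and 2.78 in adult controls and 3.55, 3.59 and 3.64 in scalded adults. It was 3.44, 4.02 and 3.10 in aged controls and 2.57, 2.02 and 2.93 in burned aged mice. Each burned adult was above each adult control and each burned aged mouse below each aged control, with Aged burn 2 lowest of all 12 libraries. No test was run on this ratio, which is a score over the members. The 6 low mRNAs held 0.122% to 0.176% of the mitochondrial counts, and mt-Nd6 had 0.225% to 0.469% of the counts of mt-Co1. The ratio is thus in effect that of the abundant mRNAs. By complex, the ratio after burn was 5.70 to 5.84 in adults and 3.16 to 4.91 in aged mice for complex I, against 4.24 to 4.46 and 4.92 to 6.28 in their controls. For complex III the adult groups overlapped, at 5.31, 6.17 and 4.95 in controls and 6.08, 6.09 and 6.36 after burn, while the aged groups, at 6.38 to 8.78 and 3.31 to 5.56, did not. For complex IV neither pair overlapped, with 4.36 to 4.74 and 5.59 to 6.01 in adults and 5.53 to 7.12 and 3.56 to 4.93 in aged mice. For complex V, whose 2 mitochondrial mRNAs are both in the low group, it was 0.00307 to 0.00573 in all libraries.

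Within the nuclear members, the share of each complex moved little. Complex I made up 26.8 to 26.9% of the nuclear sum in adult controls, 26.3 to 26.4% in scalded adults, 27.2 to 27.6% in aged controls and 26.7 to 27.01% in burned aged mice. Complex III made up 11.4 to 12.3%, 12.7 to 12.99%, 10.4 to 10.6% and 10.8 to 11.4% in the same order. For both complexes the burned libraries did not overlap their controls at either age: complex I had the smaller and complex III the larger share after burn.

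Complex IV stood out by its isoform genes, each a second gene for 1 subunit. Cox7a1 (chr7:30184171-30186030, GRCm38.p6), the form used in muscle and brown fat, was at 6.11, 10.7 and 14.8 CPM in adult controls and 133, 86.3 and 102 CPM in scalded adults. In aged mice it was at 4.001, 2.95 and 5.22 CPM in controls and 18.5, 11.1 and 15.3 CPM after burn. The burned libraries stood far above their controls at both ages, and the burned aged mice overlapped the adult controls. It rose in aged mice (log2 fold change 1.88 ± 0.29, adjusted p = 0.0112), and in adults the value was 3.35 ± 0.36 (adjusted p = 0.0812). The difference between the ages did not pass the test (-1.47 ± 0.47, adjusted p = 0.061). Its widely used partner Cox7a2 was at 107, 223 and 358 and 311, 249.5 and 375 CPM in adults and 169.5, 161 and 168 and 144, 129.7 and 127 CPM in aged mice. Counts of Cox7a1 per 100 of Cox7a2 were thus 4.13 to 5.72 and 27.3 to 42.9 in adults and 1.83 to 3.10 and 8.53 to 12.8 in aged mice, and every burned library was above every control of its age.

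Cox8b (chr7:140898942-140900446), also a muscle and brown fat form, was at 76.1, 141 and 315 CPM in adult controls and 565, 411 and 604 CPM in scalded adults. In aged mice it was at 38.3, 48.8 and 21.2 CPM in controls and 29.2, 16.2 and 26.7 CPM after burn. The adult groups were separate and the aged groups overlapped, and every aged library lay below every adult one. The log2 fold change was 1.57 ± 0.51 in adults (adjusted p = 0.788), -0.59 ± 0.35 in aged mice (adjusted p = 0.25) and -2.30 ± 0.49 between the controls (adjusted p = 0.0684). Per 100 counts of its partner Cox8a there were 27.2 to 53.2 of Cox8b in adult controls, 74.00 to 87.5 in scalded adults, 4.42 to 10.98 in aged controls and 7.30 to 8.82 in burned aged mice. The aged ranges overlapped, and whether Cox8b and Cox7a1 differ in response was not tested.

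Cox6a2 (chr7:128205435-128206366), the heart and muscle form of subunit VIa, was low throughout. It was at 1.16, 0.0967 and 0.464 CPM in adult controls and 11.2, 0.850 and 0.170 CPM in scalded adults, and at 0.201, 0.0655 and 0.153 CPM in aged controls and 1.57, 2.97 and 1.42 CPM in burned aged mice. In adults only Adult burn 1, the library with skeletal muscle markers, stood out, and in aged mice all 3 burned libraries were above the controls. It rose in aged mice (log2 fold change 3.83 ± 0.53, adjusted p = 0.00877), while in adults the value was 2.79 ± 1.51 (adjusted p = 0.788). The aged controls held 7, 3 and 7 counts of Cox6a2 and the burned aged mice 62, 114 and 51, so it passed the filter on low counts through the burned group, and its call gives no support to a count of members that rose. Skeletal muscle markers summed to 70.2, 11.00 and 38.4 CPM in aged controls and 102, 511 and 47.7 CPM in burned aged mice, with none of the 10 markers at 0 in every library of a group, and their part in Cox6a2 was not tested. The other second genes tested were low: Cox4i2 was at 1.55 to 3.62 CPM and Cox6b2 at 1.43 to 3.36 CPM over the 12 libraries, and neither passed a test (adjusted p from 0.576 to 0.98 over the 4 comparisons). Ndufa4l2 was at 8.20, 9.65 and 7.70 CPM in aged controls and 12.5, 66.9 and 10.95 CPM in burned aged mice. All burned libraries were above the controls, and the highest by far was Aged burn 2, the library with neutrophil markers (log2 fold change 1.82 ± 0.72, adjusted p = 0.117; 0.46 without Aged burn 2), and the part of those cells was not tested. Its partner Ndufa4, a subunit of complex IV despite its name, was at 335, 313 and 338 CPM and 251, 211 and 220.0 CPM in the same libraries (-0.53 ± 0.15, adjusted p = 0.0538).

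**Figure D4:**
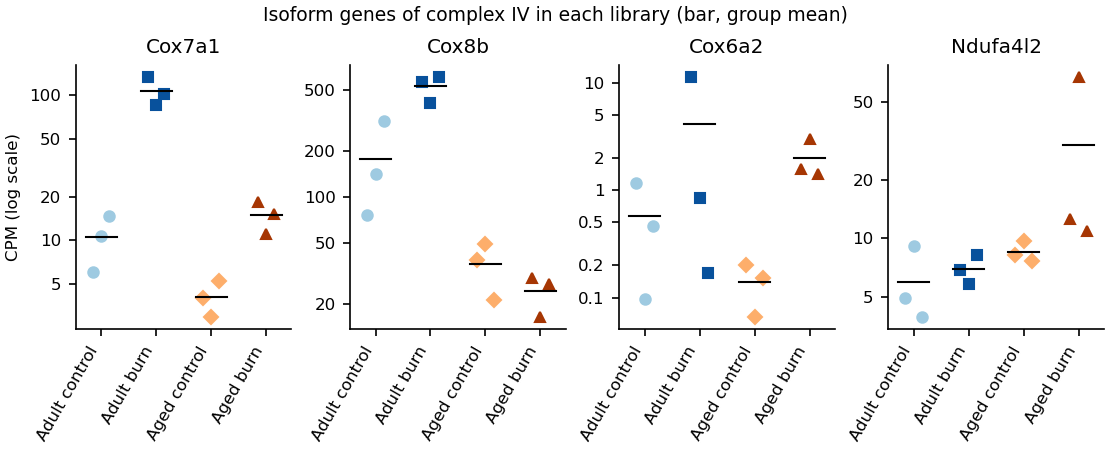
CPM (log axis, scaled separately in each panel) of 4 isoform genes of complex IV in each library, with black bars at group means (3 libraries per group). Cox7a1 is higher in all burned libraries than in their controls at both ages, Cox8b in adults, Cox6a2 in aged mice, and the high Ndufa4l2 mean of burned aged mice rests on 1 library.

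Cox7a2l, which takes part in joining complexes III and IV into supercomplexes, had overlapping groups in both burn comparisons. It was at 107, 84.1 and 134 CPM in adult controls, 104, 132 and 115 CPM in scalded adults, 81.5, 81.6 and 100.05 CPM in aged controls and 110.5, 152 and 83.6 CPM in burned aged mice. The log2 fold changes were 0.10 ± 0.20 in adults and 0.40 ± 0.23 in aged mice (adjusted p = 0.893 and 0.241). In complex V, Atp5g1 (chr11:96072793-96075694) was at 27.3, 28.00 and 34.2 CPM in aged controls and 49.3, 53.2 and 36.7 CPM in burned aged mice. All burned libraries were above all controls, against the direction of most members, without a call by edgeR (log2 fold change 0.64 ± 0.18, adjusted p = 0.0563). DESeq2 and limma-voom called Atp5g1 higher. In adults it was at 24.8, 27.7 and 27.6 CPM and 27.4, 22.9 and 24.3 CPM, in overlapping groups (-0.11 ± 0.14, adjusted p = 0.84). The inhibitor of the ATP synthase, listed as Atpif1 and so outside the name rule, was at 29.7, 21.98 and 34.6 CPM in aged controls and 92.5, 125 and 40.98 CPM in burned aged mice. It rose (log2 fold change 1.59 ± 0.41, adjusted p = 0.0452), most in Aged burn 2, and in adults it was at 28.3, 27.4 and 38.9 CPM and 23.4, 24.7 and 37.6 CPM (-0.15 ± 0.25, adjusted p = 0.865).

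Members outside the tests were Cox7b2, at 0 counts in all libraries, Cox8c, at most at 0.0279 CPM, and Ndufb4b, at most at 0.723 CPM. Reads of Ndufb4, Ndufb4b and Ndufb4c, which are near-identical copies, may have been shared or dropped, so their values are uncertain. Among 85 tested nuclear members with a known exon length, Spearman's rho between length and the log2 fold change was 0.31 in adults and -0.14 in aged mice, as a description across genes that share libraries.

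The level of adipocyte markers moved with the members in aged mice after burn, but between the controls the markers had a positive median (0.65, 8 of 10 positive) where the nuclear members had a negative one. The 10 markers (Adipoq, Plin1, Lep, Pparg, Fabp4, Cidec, Lipe, Plin4, Cfd and Retn) summed to 21403, 47842 and 57664 CPM in adult controls and 48923, 52193 and 49234 CPM in scalded adults. They summed to 47464, 54145 and 49480.1 CPM in aged controls and 26212, 10259.6 and 29022 CPM in burned aged mice. They were low in Adult control 1 and in all 3 burned aged libraries, lowest in Aged burn 2, and all 10 were detected in every library. In aged mice 10 of 10 had a negative log2 fold change (median -1.25), larger than that of the members, and edgeR called only Retn lower, DESeq2 8 and limma-voom 10 of the 10. Of all 15132 genes, these tools called 459, 1897 and 3948 lower. In adults 8 of 10 were positive (median 0.21), and none was called by edgeR, DESeq2 or limma-voom or had an unadjusted p under 0.05. Per CPM of these markers, the nuclear members stood at 0.430 to 0.555 in adult controls, 0.512 to 0.701 in scalded adults, 0.285 to 0.328 in aged controls and 0.432 to 1.09 in burned aged mice. On this ratio all burned aged libraries were above their controls, the opposite order to the CPM, and no test was run on it. Macrophage markers summed to 599.5, 364 and 512 CPM in aged controls and 3266, 7009.6 and 1948 CPM in burned aged mice. By edgeR 7 of 8 rose, where 13.7% of all genes did. The part of the cell makeup in the members' fold changes was not tested.

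**Figure D5:**
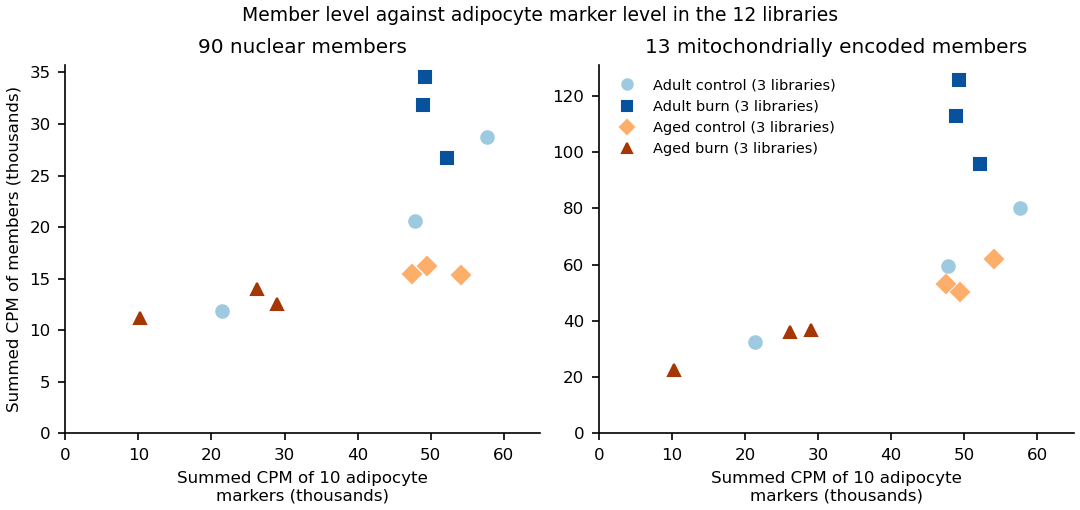
Summed CPM (in units of 1000) of the 90 nuclear members (left) and the 13 mitochondrially encoded members (right) against the summed CPM (in units of 1000) of 10 adipocyte markers, 1 point per library. In the right panel the burned adults lie above all other libraries, and the burned aged mice and Adult control 1 have the lowest marker sums, at 29022 CPM or less.

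Markers of brown and beige adipocytes moved with the members in adults. The 8 genes summed to 109, 157 and 230.0 CPM in adult controls and 2078, 1679 and 1827 CPM in scalded adults, and to 61.9, 70.3 and 48.7 CPM in aged controls and 60.6, 24.3 and 47.1 CPM in burned aged mice. The sum was higher in every burned adult than in any other library, and the aged groups overlapped. In adults 8 of 8 had a positive value and 3 rose by edgeR, where 0.0411% of all genes did. In aged mice 3 of 7 tested rose (Ucp1, Dio2 and Fabp3) and 3 fell (Cidea, Ppargc1a and Otop1), where 13.7% of all genes rose and 3.03% fell. The aged controls held 0, 16 and 22 counts of Ucp1 and 8, 2 and 13 of Fabp3. After burn there were 1209, 305 and 424 and then 213, 100 and 84. Both thus passed the filter on low counts through the burned group, and their calls give no support to a count of markers that rose. The part of the 8 markers in the members' values was not tested.

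Other genes of the pathway were taken from lists chosen with earlier results known. Of 50 tested assembly factors of the respiratory chain, 50 had a positive value in adults (median 0.33) and 37 a negative one in aged mice (median -0.26). None was called within an age by edgeR, with an unadjusted p under 0.05 for 10 in adults, among 638 of 14600 genes, and 18 in aged mice, among 5826 of 15132 genes. DESeq2 called 0 in adults and 15 in aged mice, and limma-voom 0 and 26. Of all 15132 genes in aged mice, DESeq2 called 1897 lower and 3114 higher, and limma-voom 3948 and 4442. For the difference between the ages, 9 were called lower by edgeR, where 2.22% of all genes were. Among them were Ndufaf1, an assembly factor of complex I, and Lyrm7, a chaperone for the iron-sulfur protein of complex III. Ndufaf1 was at 18.6, 26.02 and 28.8 CPM in adult controls, 35.2, 34.9 and 37.8 CPM in scalded adults, 27.7, 27.9 and 31.04 CPM in aged controls and 19.8, 14.3 and 22.4 CPM in burned aged mice. It lay above its controls in all burned adults and below them in all burned aged mice (difference -1.17 ± 0.27, adjusted p = 0.027). Lyrm7 had a difference of -1.71 ± 0.40 (adjusted p = 0.0273).

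Of 27 tested genes of mitochondrial DNA transcription, replication and RNA stability, 23 had a positive value in adults (median 0.20) and 22 a negative one in aged mice (median -0.23). In aged mice 2 fell, Mgme1, a nuclease of mitochondrial DNA replication (-0.59 ± 0.15, adjusted p = 0.0444), and Mterf3, a regulator of mitochondrial transcription and ribosomes (-0.47 ± 0.12, adjusted p = 0.0498). Of all genes, 3.03% were called lower there. The difference between the ages was called lower by edgeR for 5, where 2.22% of all genes were. Among them were Tfb2m, the partner of the mitochondrial RNA polymerase at promoters (-0.99 ± 0.25, adjusted p = 0.0349), and Mgme1 (-0.96 ± 0.25, adjusted p = 0.037). DESeq2 and limma-voom each called 10 of the 27 lower, and 1469 and 1642 of all 15553 genes. Among the nuclear regulators, the coactivator gene Ppargc1a was at 12.8, 21.02 and 18.97 CPM in adult controls, 25.8, 39.5 and 42.7 CPM in scalded adults, 25.1, 31.5 and 17.8 CPM in aged controls and 7.70, 3.31 and 10.7 CPM in burned aged mice. It fell in aged mice (-1.78 ± 0.44, adjusted p = 0.0415), was higher in each burned adult than in each adult control, and differed between the ages (-2.81 ± 0.56, adjusted p = 0.0186). Its relative Ppargc1b also differed (-1.87 ± 0.51, adjusted p = 0.0425), and Pprc1, another member of that family, rose in aged mice (0.60 ± 0.14, adjusted p = 0.0365).

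Of 24 tested genes for other mitochondrial proteins, mostly of the membranes but also of the matrix (Cs, Hspd1, Hspe1 and Hspa9), 24 had a positive value in adults and 15 a negative one in aged mice (medians 0.41 and -0.19). The difference was called lower for Opa1 and Mfn1, which fuse mitochondrial membranes (-0.98 and -0.69, adjusted p = 0.0381 and 0.0363). Of all genes, 2.22% were called lower for this difference. Of 7 tested genes of cardiolipin synthesis, the lipid that holds respiratory complexes together, the difference was called lower for Hadha and Hadhb, the subunits of the trifunctional protein of fatty acid oxidation (-1.25 and -1.69, adjusted p = 0.0475 and 0.0437).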

How the data were processed

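Raw counts per gene were deposited by the authors in 2 tables, 1 per age, with 6 libraries each. Per the labels' protocols, libraries were made from poly(A) RNA with a strand-marking kit (NEBNext). Per the submitters' processing notes, FastQC, MultiQC, cutadapt, HISAT2, featureCounts and mm10 were used. Versions, annotation, strand setting and handling of reads that fit several places are not stated there. Of 27179 identifiers, 25298 had a name in RefSeq (GRCm38.p6), 23 of them through an older identifier.

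From these counts, each comparison was fitted across all genes with edgeR 4.0.16 in R 4.3.3 (low-count filter, TMM scaling, quasi-likelihood F test), with Benjamini-Hochberg adjustment over all genes and calls at an adjusted p under 0.05. Burn within an age used the 6 libraries of its table, and the other comparisons all 12. Errors of fold changes are standard errors (SE). Alternatives were DESeq2 1.42.0, limma-voom (limma 3.58.1) with quality weights, other scalings and filters, a replicate block and omission of libraries. The fit was also run on simulated counts, drawn gene by gene from the fitted dispersions. Those counts hold no library that stands apart, so that run cannot speak to the effect of such libraries. Total counts per library limit the precision of low members.

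The members and lists were chosen with earlier results of these data known. The split of complex I and of the mitochondrial mRNAs, and the omission of Adult control 1 with Aged burn 2, were added after values had been seen. Values are named for all mitochondrial members described, for up to 2 called members per complex, direction and comparison or else the largest difference at 5 CPM or more, for the isoform pairs, Cox7a2l, Cycs, Cyc1, Sdhb and the ATP synthase inhibitor, and for the nuclear member of each complex with the most counts. For pathway lists up to 2 called genes are named. In aged mice and in the contrast 1 further called member of complex I is named, chosen after its values were seen. The values of 1 member that this rule names are not reported here. Replicate numbers were not used as pairs in the main fits. The 3 members near 0 were not tested.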

Additional observations from a re-analysis of the deposited data

Results flagged for a closer look

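The burn response differed between the ages, by the test of the contrast of aged minus adult in edgeR's quasi-likelihood fit with Benjamini-Hochberg adjustment, for 8 members. On the log2 scale the contrast was -1.74 for mt-Nd4l, -1.94 for mt-Nd5 and -2.17 for mt-Nd6. It was -1.34 for Ndufs1, -0.97 for Ndufs7 and -1.30 for Ndufv1 in complex I, and -1.13 for Uqcrc1 and -1.24 for Uqcrc2 in complex III. Among the named genes of the pathway lists it was -1.17 for Ndufaf1 and -1.71 for Lyrm7 (assembly factors), and -0.99 for Tfb2m and -0.96 for Mgme1 (mitochondrial DNA). It was -2.81 for Ppargc1a and -1.87 for Ppargc1b (regulators), -0.69 for Mfn1 and -0.98 for Opa1 (membrane fusion), and -1.69 for Hadhb and -1.25 for Hadha (cardiolipin and fatty acid oxidation). Age cannot be told apart from burn size and table in any of these values.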

How the results depend on the processing

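Counts of called members depended on the tool more than the medians did. In adults, 1 nuclear member was called higher with total-count scaling, DESeq2, limma-voom or a model over 12 libraries, and 1 mitochondrial member with DESeq2. In aged mice, nuclear members called lower numbered 3, against 8 (upper-quartile scaling), 1 (total counts), 1 (no filter), 26 (DESeq2), 30 (limma-voom) and 0 (model over 12 libraries). Nuclear members called higher numbered 2, against 1 (mean of at least 5 CPM), 4 (DESeq2) and 6 (limma-voom). Mitochondrial members called lower numbered 3, against 1 (total counts), 12 (DESeq2 and limma-voom alike) and 0 (model over 12 libraries). The aged nuclear median of -0.30 was -0.1949 with total counts and -0.195 with limma-voom, and the log2 ratio of nuclear sums of -0.3219 was -0.1969 as a mean of log2(CPM + 1). For the contrast of the ages, nuclear members called lower numbered 5, against 8 (RLE), 0 (upper-quartile), 1 (total counts), 0 (no filter), 26 (DESeq2) and 21 (limma-voom). Called higher was 1 with total counts, 5 CPM, DESeq2 or limma-voom. Mitochondrial members called lower numbered 3, against 5 (RLE), 7 (total counts), 1 (no filter), 5 (5 CPM) and 13 (DESeq2 and limma-voom). Between controls DESeq2 and limma-voom each called 3 nuclear members lower, where they called 1195 and 143 of all 15553 genes lower. Over all genes, 459 were called lower in aged mice, against 536 (upper-quartile), 183 (total counts) and 341 (no filter). DESeq2 called 1897, limma-voom 3948 and the model over 12 libraries 716. For the contrast 345 were called lower, against 466 (RLE), 311 (upper-quartile), 169 (total counts) and 189 (no filter). DESeq2 called 1469 there and limma-voom 1642. The cause of these shifts was not tested. Total-count scaling moved the median of all genes to -0.2432 in adults, 0.3741 for the contrast and -0.1266 between controls, and no median of the members changed sign under another scaling.

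Without Adult control 1 and Adult burn 1 the contrast called 0 nuclear and 0 mitochondrial members lower, and without Aged burn 2 as well 0 and 1 (mitochondrial median -1.273). Without Adult control 1 and Aged burn 2, chosen after seeing the data, it called 12 and 7 (mitochondrial median -1.336). Over all genes, these fits called 0 of 15703, 52 of 15510 and 452 of 15584 lower, in this order. Leaving out 1 library at a time gave, in adults, medians from 0.2581 to 0.9195 (nuclear) and from 0.6325 to 1.384 (mitochondrial). In aged mice the nuclear calls ranged from 0 to 6 higher and 0 to 4 lower and the mitochondrial from 0 to 3 lower, with medians from -0.3548 to -0.2401 and from -0.8476 to -0.575. For the contrast, nuclear calls ranged from 0 to 53 lower and 0 to 1 higher, and mitochondrial from 0 to 11 lower, with medians from -1.236 to -0.5493 and from -2.142 to -1.377. Between controls, 0 to 2 nuclear members were called lower, with medians from -0.6724 to -0.04712 and, for mitochondrial members, from -0.4175 to 0.2246, the last without Adult control 3. Over all genes, calls lower ranged from 0 to 2136 in aged mice, from 0 to 1447 for the contrast and from 0 to 1251 between controls. The ratio of mitochondrial to nuclear counts ranged from 2.755 to 2.839 and 3.567 to 3.613 in adult controls and burn, and from 3.271 to 3.732 and 2.299 to 2.753 in aged controls and burn. Ndufa4l2 in adults ranged from -0.01096 (without Adult control 3) to 0.65.

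Replicate numbers are shared by the groups. Deviations of same-numbered libraries from their group means had correlations from -0.00159 to 0.234 in adults and from -0.211 to -0.0658 in aged mice. Libraries with different numbers reached 0.168 in adults and 0.273 in aged mice. With 3 libraries per group, these values cannot show whether same-numbered libraries share more than a number. With the replicate block, 0 nuclear and 0 mitochondrial members were called lower in aged mice, and 0 and 1 for the contrast. Over all genes the block left 55 of 15132 and 41 of 15553 called lower.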
